A study of Mus musculus with 8 samples.

Results

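The genes described here encode the lysosomal proton pump and the protein complexes that sense nutrients and energy at the lysosome: the vacuolar H+-ATPase (V-ATPase), Ragulator, the Rag GTPases with folliculin, mTORC1 with Rheb, the TSC complex, and AMPK with its upstream kinase Lkb1. Their members were 40 named mouse genes, matched by current symbol or gene identifier to the platform's probe annotation. A probe was found for 39 of the 40 genes, of 19321 genes named on the array, and these 39 had 41 of its 23473 probes. Atp6v0c, the proteolipid of the membrane ring, had no listed probe and was not analysed here. Mlst8 and Prkaa2 had 2 probes each, and the other 37 genes had 1 each.

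The study measured brain RNA of male C57Bl/6J mice on 8 single-colour arrays, 1 mouse per array. The control group was 2 mice that drank water and were sampled at day 0. Another group of 3 mice had drunk trehalose for 1 day, and the last group of 3 mice had drunk it for 10 days. Trehalose is a disaccharide of glucose. All groups were 9 weeks old, were kept 3 to a cage and acclimatized for 1 week, and were fasted for 6 h and perfused before sampling. The sample labels name cerebral cortex and neocortex as the tissue, while the design text names the left hemisphere. No water mice were sampled at 1 or 10 days, so treatment and time of sampling cannot be told apart. Cage mates are not identified.

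The V-ATPase pumps protons into lysosomes and synaptic vesicles. Its membrane sector, V0, carries protons, and its cytosolic sector, V1, hydrolyses ATP to drive them. On the lysosomal surface Ragulator anchors the Rag GTPases, which bring mTORC1 to its activator Rheb when amino acids are plentiful, whereas the TSC complex switches Rheb off. AMPK, phosphorylated by Lkb1 when energy runs low, restrains mTORC1. These switches act largely through protein binding and phosphorylation, which an array of RNA does not measure. In neurons the proton gradient made by the pump also drives the loading of synaptic vesicles with transmitter.

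Many lysosomal genes carry a CLEAR element, the site of the transcription factor TFEB and its relatives, with the E-box core CACGTG. The promoter windows of RefSeq (build GRCm38.p6), 300 bases from 250 before to 50 after the annotated start, were searched for these letters. The core reads the same on both strands. Of the 40 genes, 35 matched a window, and 9 of the 35 (25.7%) held the core, against 8.09% of 27025 genes with windows of the same length. Among the 14021 genes with a window that were tested on the array, the share was 10.1%. The 9 were Atp6v0b, Atp6v0d1, Atp6v0e, Atp6v1a, Lamtor1, Lamtor4, Rragb, Rragc and Rheb. A match describes letters and is not a shown binding site. The stretches below show the core in capitals and up to 20 bases on either side, for members with it wholly before the start. They come from the pump, Ragulator, the Rag GTPases and the mTORC1 activator. Further on the members were divided by the core anywhere in the window, so Atp6v0d1 and Atp6v0e, not printed, count too. In Atp6v0d1 it began 3 bases before the start and ran across it. In Atp6v0e it began at base 4, counting from the start.
Atp6v0b, chr4:117887330-117887385, minus strand: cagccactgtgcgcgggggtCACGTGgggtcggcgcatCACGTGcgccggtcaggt
Atp6v1a, chr16:44139365-44139410, minus strand: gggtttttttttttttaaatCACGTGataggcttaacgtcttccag
Lamtor1, chr7:101905749-101905794, plus strand: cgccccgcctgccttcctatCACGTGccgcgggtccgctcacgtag
Lamtor4, chr5:138255342-138255403, plus strand: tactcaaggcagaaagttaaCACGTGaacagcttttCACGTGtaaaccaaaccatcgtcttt
Rragb, chrX:153139811-153139947, plus strand: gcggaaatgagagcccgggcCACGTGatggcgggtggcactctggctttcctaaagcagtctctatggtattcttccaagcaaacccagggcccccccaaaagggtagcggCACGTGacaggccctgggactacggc
Rragc, chr4:123917301-123917346, plus strand: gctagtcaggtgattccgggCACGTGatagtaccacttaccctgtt
Rheb, chr5:24842432-24842477, minus strand: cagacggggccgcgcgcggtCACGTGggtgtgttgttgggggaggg
Each of these stretches lies before its gene's start. The core began 36 and 18 bases before the start in Atp6v0b, 131 in Atp6v1a, 68 in Lamtor1 and 112 in Rragc. It began 96 bases before the start in Rheb. Lamtor4 held it at 120 and 104 bases. Rragb held it at 127 and 36 bases, and at 1 more place, not printed here, that began 3 bases before the start and ran across it.

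All 41 member probes lay above the limit set by the blank spots on all 8 arrays and entered the tests. That limit lay 2 SD over the mean of the blanks, and 86.3% to 92% of all probes passed it per array. The median spot of a member was 17.3 to 22.4 times the mean blank spot, against 2.45 to 2.87 times for the median probe. Of the 41, 5 lay under 4 times the blanks, where background correction compresses differences: Tsc1 at 1.5, Prkab2 at 1.8, the dimmer Mlst8 probe at 2.0, Prkaa1 at 3.1 and Rragd at 3.5 times. Arrays correlated pairwise at 0.9941 to 0.9977 across probes. The neuronal markers Snap25 and Rbfox3 stood at 215.2 and 90.9 times the blanks and the cortical markers Slc17a7 and Tbr1 at 23.2 and 9.4 times. Markers of striatum (Ppp1r1b at 88.4 times) and choroid plexus (Ttr at 976.3 times) were present too.

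No member passed the test in any comparison. limma with Benjamini-Hochberg adjustment called 0 of 21583 probes (0%) at an adjusted p under 0.05 in each of the 4 comparisons, and the smallest adjusted p of a member was 1. The comparisons were 1 day against control, 10 days against control, 10 days against 1 day, and trehalose at either time against control. They share mice: each comparison against control uses the same 2 water mice. Differences are given below as log2 differences with their standard error (SE) from limma, and a 95% interval holds for its probe alone.

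After 1 day of trehalose, 15 member probes were higher (36.6%, against 49.7% of all probes tested) and 26 lower than in the controls, with a median log2 difference of -0.015 against 0 for all probes tested. The differences ran from -0.18 for Atp6v1d to 0.26 for Atp6v1g1. At an unadjusted p under 0.05 stood 3 of 41 (7.32%), against 3.65% of all probes tested (787). These were Atp6v1g1, Atp6v1c1 and Prkaa1, all higher, as were 2.02% of all probes. With arrays scaled by their medians in place of quantile normalization, 21 were higher and 20 lower. The share at an unadjusted p under 0.05 varied with the processing. It was 1 of 41 (2.4%) with the authors' table, against 2.83% of all probes. With the mean of the blanks subtracted it was also 1 (2.4%), against 2.99%. With the replicate number as a block it was 4 (9.8%), against 4.31%. Groups did not overlap for 4 of 41 probes (9.76%), against 18.2% of all probes: Atp6v1g1 and Prkaa1 were higher in each treated mouse, and Atp6v0a1 and Atp6v1d lower.

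After 10 days, 20 member probes were higher (48.8%, against 48.6% of all probes) and 21 lower than in the controls, with a median of -0.009 against -0.002 for all probes. None of the 41 reached an unadjusted p under 0.05, against 2% of all probes (432). The groups did not overlap for 1 of 41 (2.44%), Atp6v1c1, against 13.4% of all probes. Between 10 days and 1 day, 23 were higher (56.1%, against 48.6%) and 18 lower at 10 days, with a median of 0.008 against -0.002. With the authors' deposited table, quantile normalized here after their own scaling, 29 were higher and 12 lower, where 73.5% of all probes were higher. In the fit, 2 of 41 (4.88%) had an unadjusted p under 0.05, against 3.5% of all probes: Atp6v0a1 was higher at 10 days and Atp6v1g1 lower. The groups did not overlap for 5 of 41 (12.2%), against 8.39%. Atp6v0a1, Lamtor3 and the dimmer Mlst8 probe were higher at 10 days, and Atp6v1g1 and Tsc2 lower. The share of members at an unadjusted p under 0.05 varied with the processing here too. It was 0 of 41 with the authors' table, against 4.94% of all probes, and 0 with the mean of the blanks subtracted, against 3.16%. The replicate number as a block gave 5 of 41 (12.2%), against 5.27%. With trehalose at either time against control, 11 were higher (26.8%, against 48.6%) and 30 lower, with a median of -0.021 against -0.002. Median scaling gave 15 higher and 26 lower. The tilt depended on single controls: it was 24 higher and 17 lower without control replicate 2, and 18 higher and 23 lower without control replicate 1. Atp6v1g1 and Atp6v1c1 had an unadjusted p under 0.05 (4.88%, against 2.63% of all probes). Both were higher, as were 1.67% of all probes, and the groups overlapped for each of the 41, against non-overlap for 4.73% of all probes.

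The intervals show what size of difference these 8 arrays leave room for. At 1 day against control, the 95% interval lay within 0.32 log2 units of zero (a rise of 25%) for 30 of 41 probes and within 0.58 units (1.5-fold) for 40 of 41. At 10 days against control the numbers were 31 and 40, and between 10 days and 1 day they were 33 and 40. The probe outside the wider bound was Atp6v1f at 1 day, with an interval from -0.62 to 0.28, and Tsc2 in the other comparisons. Intervals of dim probes are narrow in part because the offset of the background correction compresses them.

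**Figure D1:**
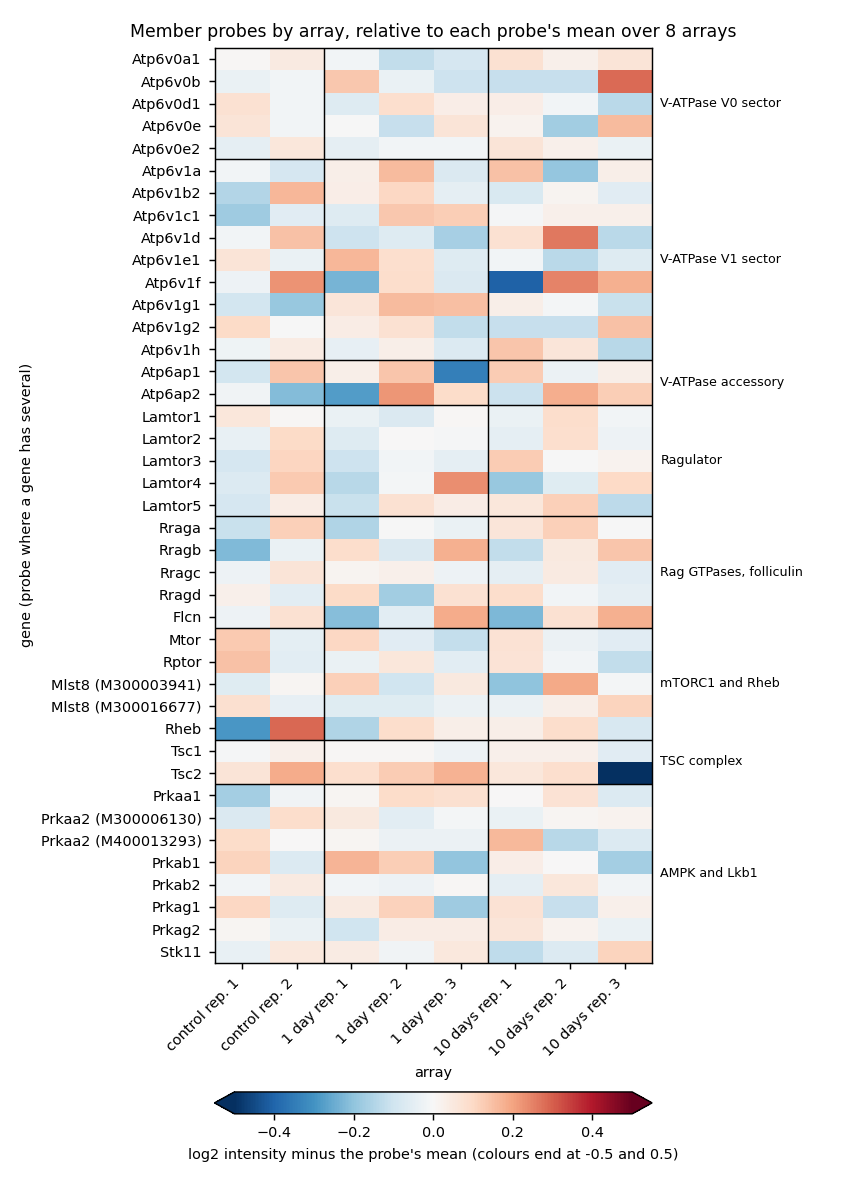
Log2 intensity of each of the 41 member probes (rows, by complex) on each of the 8 arrays (columns, by group), minus that probe's mean over the arrays; red is higher, blue lower, and colours end at -0.5 and 0.5. No block of rows changes colour with the groups, and the darkest cells are single arrays, such as Tsc2 in 10 days replicate 3.

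**Figure D2:**
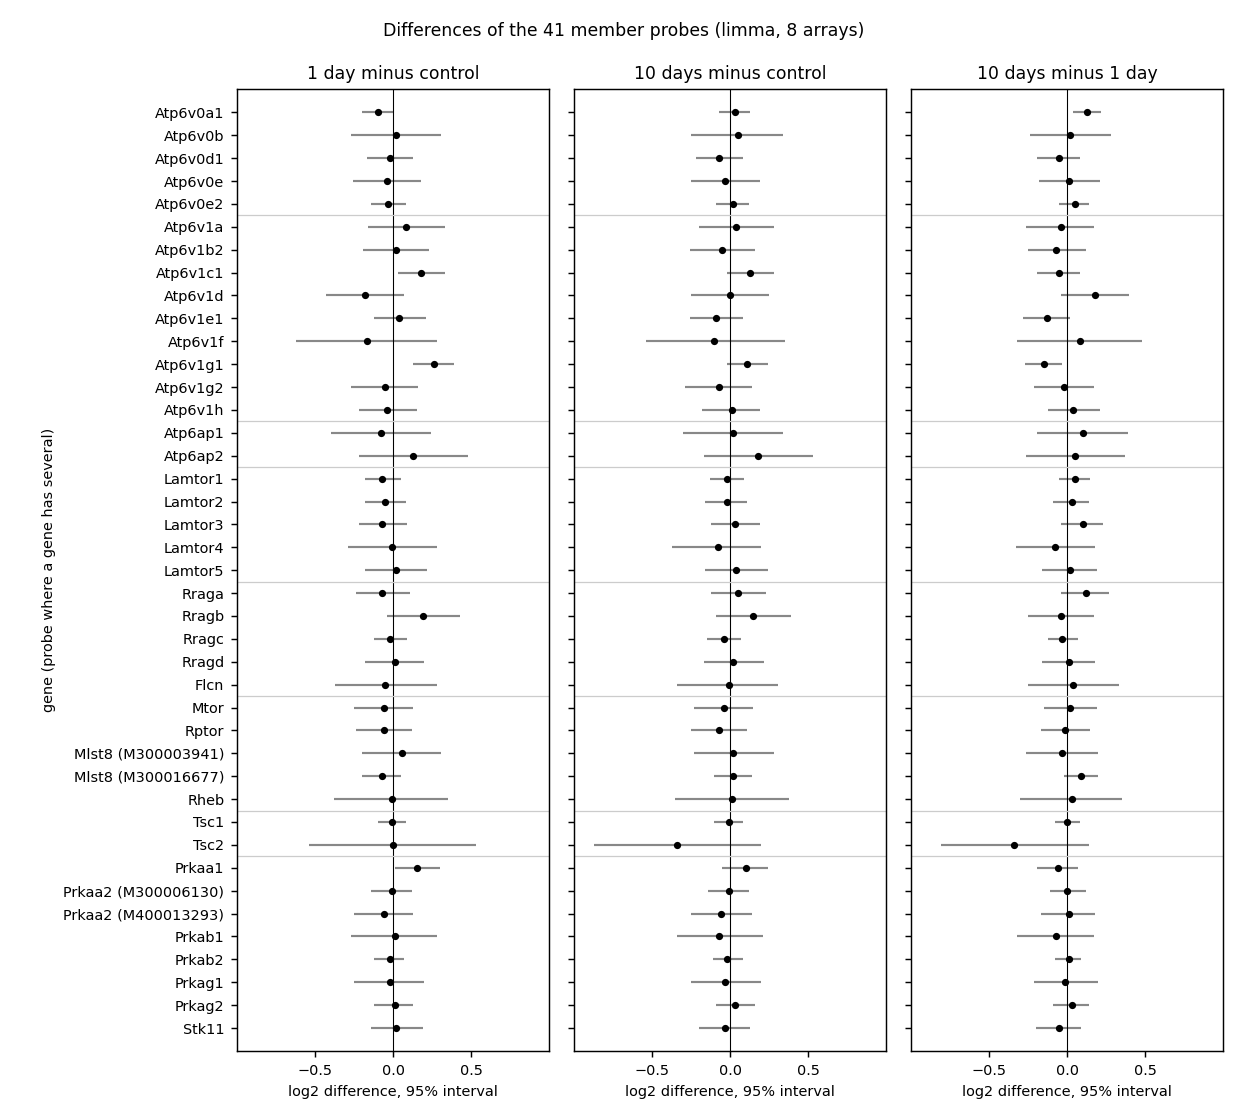
Log2 difference (points) and its 95% interval from limma (bars) for the 41 member probes in 3 comparisons, ordered by complex, over 2 control, 3 1-day and 3 10-day mice. Most intervals cross zero; those of Atp6v1g1, Atp6v1c1 and Prkaa1 lie above it at 1 day against control before adjustment over all probes.

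The V0 sector had 5 measured genes, none of which passed the test. At 1 day 1 was higher and 4 were lower, and at 10 days 3 were higher and 2 lower. Atp6v0a1, the large membrane subunit that is the main neuronal isoform, had log2 intensities of 9.19 and 9.23 in the water mice, 9.17, 9.06 and 9.10 after 1 day, and 9.26, 9.21 and 9.25 after 10 days. The 1-day mice lay below both other groups without overlap, and the 10-day values spanned the upper control value. The log2 difference was -0.10 (SE 0.04, interval -0.20 to 0) at 1 day against control, 0.03 (SE 0.04) at 10 days against control, and 0.13 (SE 0.04, interval 0.04 to 0.22, adjusted p = 1 by limma) between 10 days and 1 day. The other V0 genes differed by 0.07 or less in size in each comparison. Atp6v0d1, the subunit that couples the membrane ring to the central stalk, differed by -0.02 and -0.07 at 1 and 10 days. Atp6v0b, a proteolipid, differed by 0.02 and 0.05. Its 10-day mean of 10.15 ± 0.23 (SD, n = 3) contained 1 mouse at 10.42 and 2 at 10.02. Atp6v0e and Atp6v0e2, small membrane subunits, differed by -0.04 and -0.03 at 1 day and by -0.03 and 0.02 at 10 days.

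The V1 sector had 9 measured genes, of which 5 were higher and 4 lower at 1 day, and again 5 and 4 at 10 days. Atp6v1g1, a subunit of the peripheral stalk, had the smallest p of the members. Its log2 intensities were 10.12 and 10.02 in the water mice, 10.27, 10.37 and 10.36 after 1 day, and 10.24, 10.20 and 10.10 after 10 days. All 3 1-day mice lay above both other groups, while the lowest 10-day mouse lay between the controls. The log2 difference was 0.26 at 1 day (SE 0.06, 95% interval 0.13 to 0.39, adjusted p = 1 by limma), an increase of 19.7% in intensity that ranked 23 among all probes by p. It was 0.11 at 10 days (SE 0.06, interval -0.02 to 0.24) and -0.15 between 10 days and 1 day (SE 0.05, interval -0.27 to -0.03). At 1 day the value stayed between 0.21 and 0.31 when any 1 array was left out. With the local background column subtracted, the 10-day value turned to -0.30. Atp6v1g2, the neuronal isoform of the same subunit, differed by -0.05 (interval -0.27 to 0.16) at 1 day and -0.07 at 10 days.

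Atp6v1c1, the subunit that joins the stalks when the pump assembles, had log2 intensities of 10.34 and 10.46 in the water mice, 10.45, 10.65 and 10.64 after 1 day, and 10.51, 10.54 and 10.54 after 10 days. Each 10-day mouse lay above both controls, and 1 of the 3 1-day mice lay just under the higher control. The log2 difference was 0.18 at 1 day (SE 0.06, interval 0.03 to 0.33, adjusted p = 1 by limma) and 0.13 at 10 days (SE 0.06, interval -0.02 to 0.28). Without control replicate 1 the 1-day difference was 0.12, and its unadjusted p was no longer under 0.05. With the 1-day replicate 1 left out it was 0.24 (adjusted p = 0.684 by limma). Atp6v1d, a part of the central rotor, differed by -0.18 at 1 day (SE 0.11), 0 at 10 days and 0.18 between them (SE 0.10). The catalytic subunit Atp6v1a differed by 0.08 and 0.04, and its partner Atp6v1b2, the brightest member probe, by 0.02 and -0.05. Atp6v1e1, a stalk subunit, differed by 0.04 and -0.09, and Atp6v1h, which regulates the pump, by -0.04 and 0.01. Atp6v1f, of the rotor, was the most variable of the V1 genes, with 11.08, 11.73 and 11.66 in the 10-day mice, and differed by -0.17 and -0.10.

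**Figure D3:**
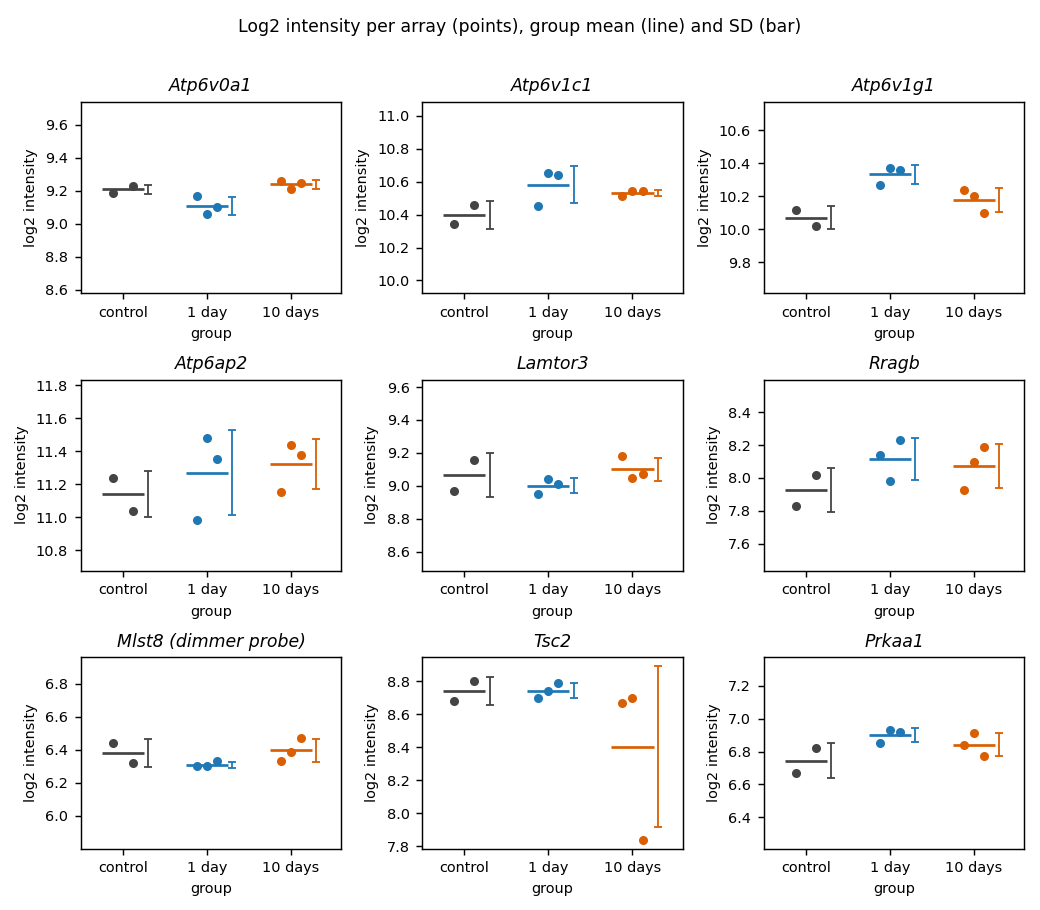
Log2 intensity per array (points), group mean (line) and SD (bar) for 9 member probes, in the control, 1-day and 10-day groups (n = 2, 3 and 3); all panels span the same number of log2 units. Atp6v1g1 lies highest in the 1-day mice at 10.27 to 10.37, Atp6v0a1 lies lowest there, and Tsc2 has 1 array at 7.84.

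Of the 2 accessory proteins, Atp6ap2, also known as the prorenin receptor, had log2 intensities of 11.24 and 11.04 in the water mice, 10.98, 11.48 and 11.35 after 1 day, and 11.15, 11.44 and 11.38 after 10 days. The groups overlapped. The difference was 0.13 (SE 0.15) at 1 day and 0.18 (SE 0.15, interval -0.17 to 0.53) at 10 days. Atp6ap1, which helps the pump assemble, differed by -0.08 and 0.02.

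Ragulator is a scaffold of 5 proteins, and each had a probe. At 1 day 1 of the 5 was higher and 4 were lower, and between 10 days and 1 day 4 were higher and 1 lower. All 5 differences from control were 0.08 or less in size at both times. Lamtor3 had log2 intensities of 8.97 and 9.16 in the water mice, 8.95, 9.04 and 9.01 after 1 day, and 9.18, 9.05 and 9.07 after 10 days. Every 10-day mouse lay above every 1-day mouse, and both groups overlapped the controls. The difference between 10 days and 1 day was 0.10 (SE 0.06, interval -0.04 to 0.23). Lamtor1, which carries the lipid anchor that holds the scaffold on the lysosome, differed by -0.07 (interval -0.18 to 0.05) at 1 day and -0.02 at 10 days. Lamtor2, which pairs with Lamtor3, differed by -0.05 and -0.02. Lamtor4 differed by -0.01 and -0.08, and Lamtor5 by 0.02 and 0.04.

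Among the 4 Rag GTPases and folliculin, 2 were higher and 3 lower at 1 day, and 3 were higher and 2 lower at 10 days. Rragb, an isoform of the RagA type, had log2 intensities of 7.83 and 8.02 in the water mice, 8.14, 7.98 and 8.23 after 1 day, and 7.93, 8.10 and 8.19 after 10 days. In each trehalose group 2 of 3 mice lay above both controls, and the third lay between them. The difference was 0.19 at 1 day (SE 0.10, interval -0.04 to 0.43) and 0.15 at 10 days (SE 0.10, interval -0.09 to 0.39). With the local background column subtracted, the 1-day value of Rragb turned to -0.25. Its paralog Rraga differed by -0.07 and 0.05. Rragc and Rragd, which pair with the RagA type in a heterodimer, differed by -0.02 and 0.01 at 1 day and by -0.04 and 0.02 at 10 days. Flcn, the GTPase-activating protein for RagC and RagD, differed by -0.05 and -0.01, with 9.11, 9.27 and 9.51 in the 1-day mice and 9.10, 9.40 and 9.50 in the 10-day mice.

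The mTORC1 kinase and its partners gave small differences. Mtor, the kinase, differed by -0.06 (interval -0.25 to 0.13) at 1 day and -0.04 (interval -0.23 to 0.15) at 10 days. Rptor, the subunit that recruits substrates, differed by -0.06 and -0.07. The 2 probes for Mlst8, a subunit bound to the kinase domain, went opposite ways at 1 day, by 0.06 and -0.07. The dimmer one had log2 intensities of 6.44 and 6.32 in the water mice, 6.30, 6.30 and 6.33 after 1 day, and 6.33, 6.39 and 6.47 after 10 days. Every 10-day value was at or just above the highest 1-day value. The difference between 10 days and 1 day was 0.09 (SE 0.05, interval -0.02 to 0.20) on this probe and -0.03 (SE 0.10) on the brighter one. Rheb differed by -0.01 and 0.01, but its 2 controls lay apart, at 10.99 and 11.57, and all 6 trehalose mice lay between them.

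The TSC complex was represented by Tsc1 and Tsc2. Tsc2, the GTPase-activating protein for Rheb, had log2 intensities of 8.68 and 8.80 in the water mice, 8.70, 8.74 and 8.79 after 1 day, and 8.67, 8.70 and 7.84 after 10 days. A single 10-day mouse was low and the other 7 mice lay between 8.67 and 8.80. Its spot read 209 on that array against 375 to 427 on the others and carried no failed flag. The difference at 10 days against control was -0.34 (SE 0.23, interval -0.87 to 0.20), and -0.06 without 10 days replicate 3. It turned to 0.23 with the local background column subtracted. Tsc1, its stabilising partner, differed by -0.01 at both times on a probe only 1.5 times the blanks.

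AMPK is a trimer of a catalytic alpha, a scaffolding beta and a nucleotide-binding gamma subunit, and 7 probes covered 6 of its subunit genes. With Stk11, the gene of Lkb1, 4 of 8 probes were higher and 4 lower at 1 day, and 2 were higher and 6 lower at 10 days. Prkaa1, a catalytic subunit, had log2 intensities of 6.67 and 6.82 in the water mice, 6.85, 6.93 and 6.92 after 1 day, and 6.84, 6.91 and 6.77 after 10 days. Each 1-day mouse lay above both controls, and 1 of the 10-day mice lay between them. The difference was 0.15 at 1 day (SE 0.06, interval 0.01 to 0.30, adjusted p = 1 by limma) and 0.10 at 10 days (SE 0.06, interval -0.05 to 0.24). Without control replicate 1 the 1-day value was 0.08, with an unadjusted p no longer under 0.05, and without control replicate 2 it was 0.23. With the mean of the blanks subtracted in place of normexp it was 0.30. The other catalytic subunit, Prkaa2, differed by -0.01 and -0.06 at 1 day on its 2 probes, and by the same amounts at 10 days. The beta subunits Prkab1 and Prkab2 differed by 0.01 and -0.02 at 1 day, and by -0.07 and -0.02 at 10 days. The gamma subunits Prkag1 and Prkag2 differed by -0.02 and 0.01 at 1 day and by -0.03 and 0.03 at 10 days. Stk11 differed by 0.02 and -0.03.

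**Figure D4:**
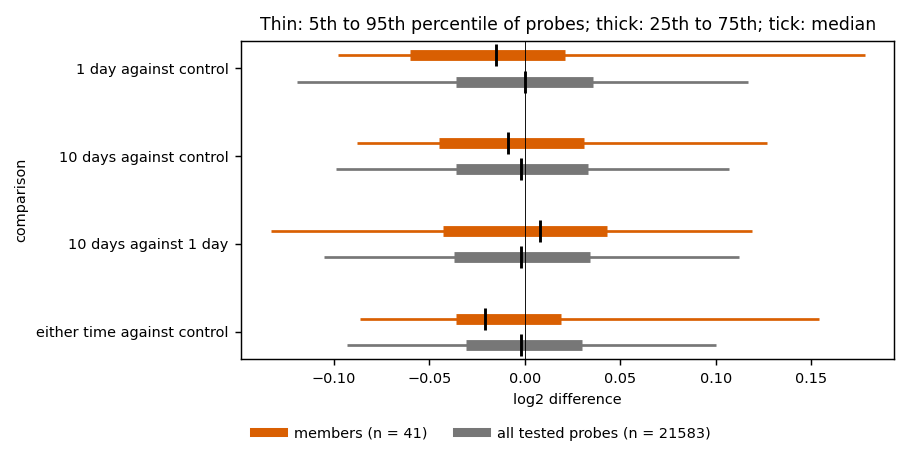
Distribution of log2 differences over the 41 member probes (orange) and all 21583 tested probes (grey) in the 4 comparisons: thin lines run from the 5th to the 95th percentile of probes, thick lines from the 25th to the 75th, and ticks mark medians. The member medians lie between -0.021 and 0.008, close to zero like those of all probes.

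Members with and without the CACGTG core can be set side by side. Of the 9 members with it, 3 were higher and 6 lower at 1 day, with a median of -0.013, and 4 were higher and 5 lower at 10 days, with a median of -0.02. Of the 27 probes of members with a window lacking it, 9 were higher and 18 lower at 1 day (median -0.025), and 12 and 15 at 10 days (median -0.011). All tested probes with the core, 1521 in number, had medians of -0.002 and -0.001. Rragb, with the core at 3 places, had the largest difference of the 9 at 1 day, 0.19. Lamtor4 and Atp6v0b, which hold it at 2 places, differed by -0.01 and 0.02.

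The other genes of these pathways were taken from 4 lists, with 72 tested probes for 66 genes: further V-ATPase isoforms and assembly factors, GATOR, KICSTOR and nutrient sensors, further mTOR complex parts and substrates, and further AMPK parts, kinases and substrates. None passed the test in any comparison. At 1 day 36 were higher and 36 lower, and at 10 days 40 were higher and 32 lower. At an unadjusted p under 0.05 stood none at either time against control, and 2 of 72 (2.78%) between 10 days and 1 day, below the 3.5% of all probes. Oxr1, whose family binds the V1 sector, differed by 0.22 (SE 0.08), and a probe for Dmxl2, a subunit of the pump's assembly factor, by -0.10 (SE 0.04). A second Dmxl2 probe differed by 0.06. Of the further mTOR complex parts and substrates, Rps6, a ribosomal protein whose phosphorylation follows mTORC1 activity, differed by 0.13 at 1 day, and Akt1s1, an inhibitory mTORC1 subunit, by -0.09. The leucine sensor Sesn2 differed by -0.06 and -0.05, and a probe of Castor2, from the same list, by -0.08 and -0.10 at 1 and 10 days. The second Castor2 probe differed by -0.02 and 0.03.

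Markers of neighbouring regions differed between mice and in part with the groups. Of the 6 striatal marker probes, 6 were lower at 1 day, with a median difference of -0.361. Their mean log2 intensity was 9.51 and 9.12 in the controls, 9.47, 8.23 and 9.04 after 1 day, and 9.12, 9.24 and 9.21 after 10 days, and their summed level ran from 6981 to 10183, from 3482 to 9823 and from 6968 to 7952. Of 7 thalamic marker probes, 6 were higher at 1 day and 7 at 10 days, and their mean was 8.04 and 8.26 in the controls and 8.31 to 8.63 in the 6 trehalose mice. The summed level was 2283 to 2679 in the controls, 2829 to 3755 after 1 day and 2866 to 3198 after 10 days. The 7 choroid plexus and ependyma probes were all higher at 10 days, with summed levels of 25942 to 30367, 24835 to 33691 and 30374 to 30414. Of 7 cortical excitatory probes 6 were lower at both times, with summed levels of 4909 to 4954, 4485 to 4778 and 4347 to 4471. No marker list had a probe called at an adjusted p under 0.05. At an unadjusted p under 0.05 in limma stood 2 of 7 thalamic probes (28.6%) at 1 day, both higher, against 3.65% of all probes. At 10 days 2 thalamic probes, both higher, and 2 of 7 cortical excitatory probes, both lower, did (28.6% each), against 2%. Of the striatal probes 0 did at either time. The groups did not overlap for 3 of 7 thalamic probes (42.9%) at each time, against 18.2% and 13.4% of all probes. The probes behind these values all passed the blank limit on at least 2 arrays. Tcf7l2, also listed as a thalamic marker, had a probe that did not pass and was left out. Rora held 2 of the 7 thalamic probes. The part of this makeup in the member differences was not tested. Without 1-day replicate 2, the array lowest in striatal and highest in thalamic markers, the Atp6v1g1 difference at 1 day was 0.24. That of Atp6v1c1 was 0.14 and that of Prkaa1 0.14, and Atp6v1g1 alone had an unadjusted p under 0.05. Leaving out 1-day replicate 3 instead gave 0.25, 0.15 and 0.14, again with Atp6v1g1 alone under 0.05. Leaving out 1-day replicate 1 gave 0.29, 0.24 and 0.18, each with an unadjusted p under 0.05. In bulk tissue, fewer cells of a type and less RNA per cell cannot be told apart.

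The members varied between mice of a group by a median residual SD of 0.103 log2 units, from 0.03 to 0.31, against 0.064 for all probes and 0.099 for 4312 probes in the members' middle range of intensity. The 2 controls differed too: control replicate 2 was higher than control replicate 1 for 25 of 41 members (61%), with a median of 0.063, against 51.6% and 0.004 over all probes. Without control replicate 2, 23 of the 41 members were higher at 1 day and 28 at 10 days, with medians of 0.017 and 0.029.

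**Figure D5:**
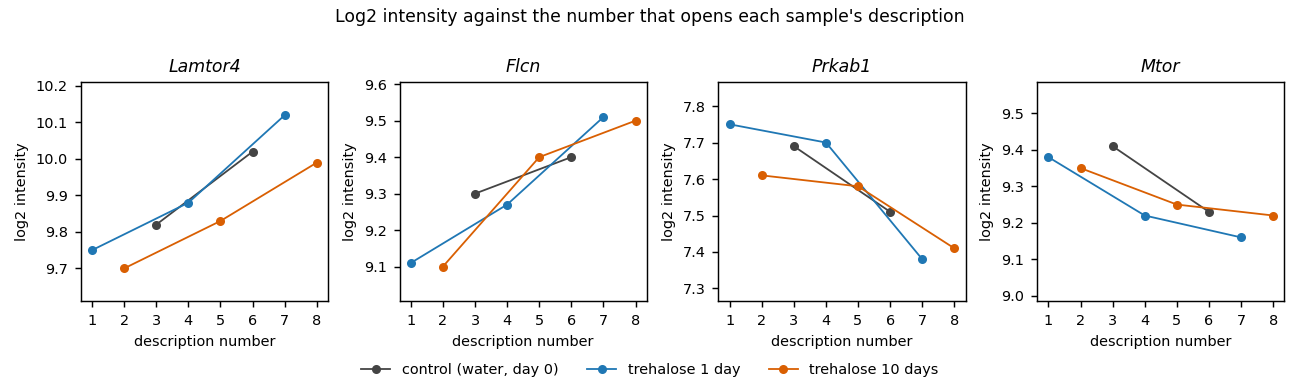
Log2 intensity of Lamtor4, Flcn, Prkab1 and Mtor against the number, from 1 to 8, that opens each sample's description; points are arrays, lines join mice of a group (2 control, 3 1-day, 3 10-day), and the panels span equal ranges. Lamtor4 lay at 9.70 to 9.82 at numbers 1 to 3 and at 9.99 to 10.12 at numbers 6 to 8, and Flcn at 9.10 to 9.30 and 9.40 to 9.51.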

How the data were processed

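RNA of 8 mouse brain samples was hybridised to 8 single-colour arrays. Per the file headers, the deposited scanner files give the median pixel intensity of every spot. The authors' deposited table holds linear-scale processed intensity values by probe, with a median of 25 and 1502 to 2763 missing values per array. It matched blank-subtracted spots (correlation 1). Its log2 values, quantile normalized between arrays here, served as an alternative. Software and genome build are not given in the sources used here.

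Spot medians were corrected by normexp with an offset of 50, failed spots were set to missing (10 probe spots), arrays were quantile normalized, and spots of a probe averaged (limma 3.58.1, R 4.3.3). Probes above the mean plus 2 SD of blanks on at least 2 arrays were tested, 21583 of 23473. One limma fit of 3 group means had 5 residual degrees of freedom, and p-values were adjusted by Benjamini-Hochberg over all tested probes at 0.05. The fit was tested on simulated data. Of 20690 annotated probes, 20556 had an identifier that matched the reference table. Each array is a mouse, so p-values set the differences between groups against the spread between mice of a group. Any effect of the cage is not covered, as cage mates are not identified. The number of arrays limits precision.

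The members and lists were chosen with earlier results of these data known. Values per array are given for members with an unadjusted p under 0.05 in any comparison and for the lowest p of each complex; of the pathway lists, the 2 lowest p per comparison could be named, and the second probes of Dmxl2 and Castor2 were added after their values were seen. Alternatives were median scaling, other background corrections, the authors' table, other filters, fit options, 1 value per gene, the description number and the replicate number as terms, and leaving out each array; the local background column was added after seeing the data. Protein sequences were not used here. The promoter search was planned for bases before the start only, and for a longer form of the core as well. The search that was run covered the whole window and CACGTG alone.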

Additional observations from a re-analysis of the deposited data

How the results depend on the processing

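The count of member probes called at an adjusted p under 0.05 was 0 in each comparison under every alternative run, and the smallest adjusted p of a member over 19 alternative settings was 0.684; with the local background column subtracted it was 0.278 at 1 day, 0.649 at 10 days, 0.412 between them and 0.293 for trehalose at either time. The median member difference moved by more than 0.018, the SD between mice of the members' median, as follows. With the authors' table it was -0.048 at 1 day against control, 0.01 at 10 days against control and 0.052 between 10 days and 1 day, where the median of all probes was itself -0.052, 0.025 and 0.077. With the local background column subtracted it was -0.071, 0.064 and 0.047. There 87 of 164 member differences kept their sign; the 10-day difference of Atp6v1g1 turned to -0.30 and that of Atp6v1c1 became 1.45. The cause was not tested. Leaving out 1 array gave medians of -0.025 to 0.017 at 1 day, -0.023 to 0.029 at 10 days, -0.006 to 0.008 between 10 days and 1 day, and -0.025 to 0.017 for trehalose at either time; the highest values against control came without control replicate 2. Replicate numbers were not shown to pair mice. Deviations of same-numbered arrays correlated between -0.025 and 0.263, over 0.1 in 6 of 7 pairs. Those of other-numbered arrays correlated between -0.315 and 0.213, over 0.1 in 2 of 14 pairs. The pairs are not independent, as the deviations of the 2 controls mirror each other. With the replicate number as a block the medians were -0.008, 0.005, 0.008 and -0.007, and no member was called. For trehalose at either time the block gave 20 members higher and 21 lower. Among these 19 settings, the same signs were kept least often without control replicate 2, for 119 of 164 differences. Dim probes depend on the offset: the 1-day difference of Prkaa1 was 0.28 with an offset of 0. The 5 probes under 4 times the blanks limit what can be said of Tsc1, Prkab2 and Rragd.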

Other observations

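Each sample description starts with a number, from 1 to 8, that alternates between the groups. Its meaning is not given in the sources used here. Replicate 1 held numbers 1 to 3, replicate 2 numbers 4 to 6 and replicate 3 numbers 7 and 8. Trends over the number and over the replicates are therefore not separate observations. The description number was added to the limma fit as a linear term after the data had been seen. Over all probes, 10.9% (2343) had an unadjusted p under 0.05 for this term, and 0 were called after Benjamini-Hochberg adjustment. Among the members 7 of 41 (17.1%) did, 4 rising with the number and 3 falling, with a smallest adjusted p of 0.198 in limma. From number 1 to 8 the fitted log2 change was 0.39 for Lamtor4 (adjusted p = 0.198 by limma) and 0.44 for Flcn (adjusted p = 0.198 by limma). It was -0.34 for Prkab1 (adjusted p = 0.229) and -0.23 for Mtor (adjusted p = 0.238), by limma. Atp6v1f (0.45), Rragb (0.23) and Atp6v1e1 (-0.17) made up the 7. In these 7 genes the changes over the numbers were larger in size than their differences between trehalose and control mice. The 7 were picked by their p for the number, which favours large changes, so nothing is drawn from this. In Atp6v1g1, Atp6v1c1 and Prkaa1 the changes over the numbers were smaller in size than the differences at 1 day. They were -0.05, 0.14 and 0.05, against 0.26, 0.18 and 0.15 at 1 day. These genes were picked by their p at 1 day, which favours large differences there, so nothing is drawn from this either.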
